A study of Mus musculus with 25 samples.

Results

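The joins described here are translocation junctions that landed in the EGFP sequence just right of an I-SceI site, in a reporter cassette carried by mouse embryonic stem cells. They were chosen by position alone, as all listed junctions on either strand from the end of the I-SceI site to the XbaI site, a window of 340 bp, and they numbered 393 of 11867. Of these, 257 came from cells given I-SceI and 136 from the 8 groups given Tus, and none came from EV. The junctions were mapped by LAM-HTGTS, a method in which a Cas9 cut serves as bait and DNA joined to the bait end (the prey) is amplified and sequenced from a primer beside the cut. Per the labels, the bait lay 30 kb from the 4-kb cassette, which sits in the ROSA26 locus on chromosome 6. DNA was collected 48 h after the nucleases were delivered.

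The groups used were as follows. I-SceI, Tus and EV (a label read here as empty vector) were given to BRCA1del cells with siFANCM, an siRNA against the DNA translocase FANCM, in 2, 3 and 2 samples. Tus was also given to BRCA1del cells with siBLM (against the RecQ helicase BLM), siBRCA1 or the control siLuciferase, with 3 samples each. BRCA1flox cells received Tus with siBLM or siBRCA1 (2 samples each), with siFANCM (3 samples) or with siLuciferase (2 samples). The labels give the genotypes as BRCA1del/exon11 and BRCA1flox/exon11. All groups shared the cassette, with its array of Ter elements and the I-SceI site, and the Cas9 bait cut. Nothing in the labels says whether samples were separate cultures or whether each genotype was 1 clone.

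I-SceI is a homing endonuclease from yeast mitochondria that makes a double-strand break with a short overhang. Tus is a bacterial protein that binds Ter elements and blocks replication forks, which in this cassette happens at the array to the left of the I-SceI site. A broken end can be joined by non-homologous end joining, which often leaves blunt joins or short overlaps, or by microhomology-mediated routes, which pair a few identical bases exposed on both ends by resection. BRCA1 promotes resection and homologous recombination.

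Both ends that define these joins can be shown. The I-SceI site is printed in top-strand letters, with capitals marking the part right of the top-strand cut, and the bait end is printed up to the Cas9 cut, which was placed where most still-matching reads stopped. Capitals in the bait end mark the 9 bases that held the microhomologies of at least 5 bp found at the positions named further on, and this stretch ends 7 bases before the cut.
I-SceI site, 18 bp from cassette position 3260 on: tagggataaCAGGGTAAT
Bait end read from the junction reads, last 40 bases before the cut: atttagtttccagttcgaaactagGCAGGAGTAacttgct
The bait end was not placed on a genome here: the bait label names a ROSA26 guide, while the protocol text cites RAG1 primers. Distances are counted in the deposited coordinates so that the window starts at 1 bp. That base is the last one of the site, so the 19 joins at 1 bp keep it, and the top-strand cut lies between -8 and -7 bp. A join is called rightward where the prey ran from the junction away from the array, toward the XbaI site, and leftward where it ran back toward the I-SceI site and the array.

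Samples of a group share a table, and only the read names tell the sequencing runs apart, 4 in all and lettered A to D here. Each group had as many runs as samples, so a run of a group was taken as 1 library. The 25 libraries held 148 to 933 junctions each. Outside EV they held 97 to 722 cassette-body joins, that is joins from the first base of the cassette to the XbaI site. Intervals are 95% Wilson intervals, and like the Fisher tests on pooled junctions they cover counting error only, since amplified reads are not independent molecules. Permutation p-values rest on the spread among libraries, which may be technical only.

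The first question was how often a join landed right of the site after an I-SceI break and after a Tus block. With I-SceI, 101 of 511 cassette-body joins in run A and 156 of 632 in run C lay right of the site, or 19.8% and 24.7%. With Tus in the same cells the shares were 1.23% in run A (5 of 408), 0.94% in run C (3 of 319) and 1.03% in run D (1 of 97). The groups did not overlap, and both I-SceI libraries lay far above every Tus library. The mean was 22.2% ± 3.48 with I-SceI (SD, n = 2 libraries) and 1.07% ± 0.146 with Tus (SD, n = 3 libraries). The pooled difference was 21.4 percentage points (Fisher's exact test, adjusted p = 6.74e-53 over 9 measures). The exact two-sided permutation test over libraries gave p = 0.1, the smallest that 2 against 3 libraries allow.

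EV libraries held 2 and 3 cassette-body joins, and 0 of these 5 lay right of the site, so a share of body joins could not be measured there. Of all 468 EV junctions 0 lay right of the site. A count of 0 allows a share of up to 0.641% by a limit of 3 counts, and up to 0.814% by the Wilson interval. The corresponding shares of all listed junctions were 15.1% with I-SceI (257 of 1702, interval 13.5 to 16.9%) and 0.679% with Tus (9 of 1326, interval 0.357 to 1.28%). The I-SceI share was above EV on pooled junctions (Fisher's exact test, p = 1.61e-29), with an exact permutation p of 0.333 over libraries, the smallest that 2 against 2 allow, and the Tus share was not distinguishable from EV at this depth (Fisher's exact test, p = 0.123).

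Only 9 joins came from Tus in the matched cells, so the Tus libraries of all 4 siRNAs in BRCA1del were also used, an addition made after the data were seen. Their 12 libraries held 56 such joins among 3451 body joins, with shares between 0.556% and 3.24%, all below the I-SceI libraries. The mean share was 22.2% ± 3.48 with I-SceI (SD, n = 2 libraries) and 1.49% ± 0.737 with Tus (SD, n = 12 libraries). The exact permutation p was 0.011, the smallest possible, and 0.0247 after adjustment over 9 measures. These Tus libraries differ from the I-SceI libraries in siRNA as well as in the protein given. Some of these Tus libraries also came from runs B and D, which held no I-SceI library.

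**Figure D1:**
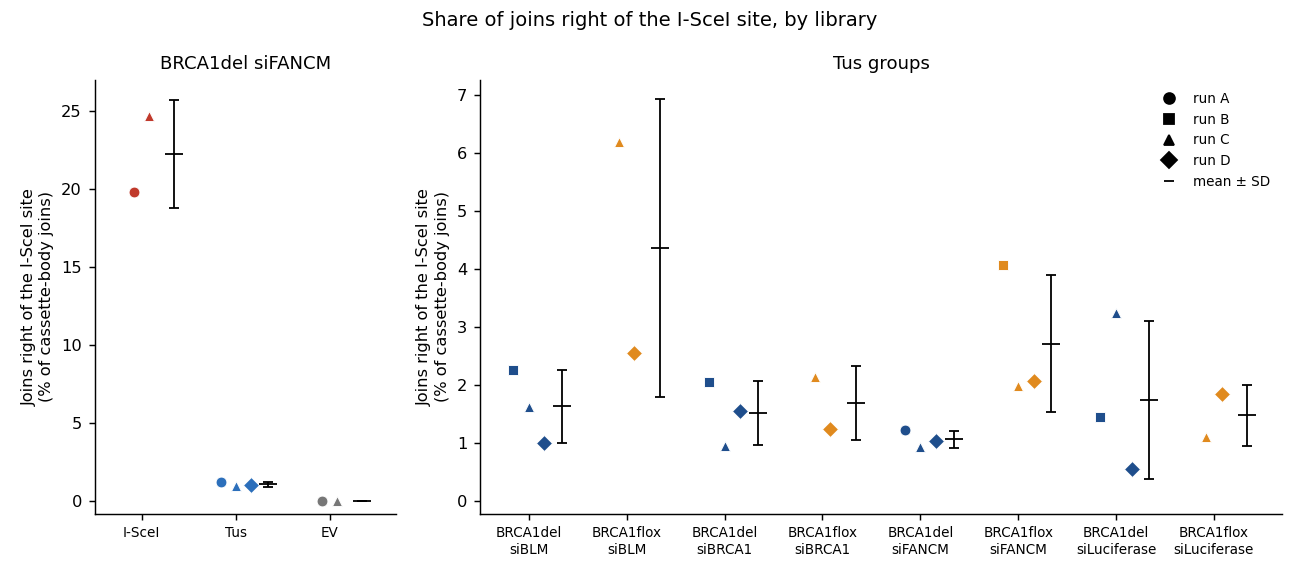
Share of cassette-body joins that lie right of the I-SceI site, in percent, with 1 point per library (shape gives the run) and the mean ± SD beside it. Left, the groups in BRCA1del cells with siFANCM, where the I-SceI libraries sit at 19.8% and 24.7% and the Tus libraries between 0.94% and 1.23%. Right, the 8 Tus groups on an axis of their own, where the highest library is BRCA1flox siBLM in run C at 6.19%.

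The direction of the joins differed too. With I-SceI, 88 of 101 joins in run A and 134 of 156 in run C were rightward, or 87.1% and 85.9%. With Tus in the matched cells 3 of 9 were rightward, and the share per library was 40% in run A, 0% in run C and 100% in run D, from 5, 3 and 1 joins. The pooled difference was 53.0 points (Fisher's exact test, adjusted p = 0.00127), while the exact permutation p over libraries was 0.4. Against the 12 BRCA1del Tus libraries, where 18 of 56 joins were rightward (32.1%, interval 21.4 to 45.2%), the difference was 54.2 points (Fisher's exact test, adjusted p = 3.61e-15), and the exact permutation p was 0.132. Several Tus libraries held 1 to 3 such joins. Without run C of the matched Tus cells the difference was 36.4 points and missed the threshold (Fisher's exact test, adjusted p = 0.0767), and with each position and direction counted once per library it was 34.9 points (adjusted p = 0.111).

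Both directions contributed to the difference in number. Rightward joins right of the site made up 17.2% and 21.2% of body joins in the I-SceI libraries, against 0.49%, 0% and 1.03% in the matched Tus libraries. Leftward joins made up 2.54% and 3.48% with I-SceI, against 0.735%, 0.94% and 0% with Tus. The pooled differences were 19.1 points for rightward joins (Fisher's exact test, adjusted p = 2.32e-51) and 2.33 points for leftward joins (Fisher's exact test, adjusted p = 0.000921). In both directions the I-SceI libraries lay above all 3 Tus libraries (exact permutation p = 0.1, the smallest possible).

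Rightward I-SceI joins crowded next to the site. Their median distance was 7 bp, with an interquartile range of 4 to 15 bp and a farthest join at 220 bp. Of the 222, 148 lay within 10 bp (66.7%) and 35 at 11 to 20 bp (15.8%). Farther out there were 22 joins at 21 to 50 bp, 10 at 51 to 100 bp, 6 at 101 to 200 bp and 1 beyond 200 bp. The count thus dropped with distance from the break. They used 50 distinct positions.

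These joins continued a series that starts inside the site. Rightward I-SceI joins inside the site, before its last base, numbered 163 in run A and 190 in run C, beside the 88 and 134 right of it. Right of the site thus lay 35.1% and 41.4% of the rightward joins from the start of the site on. The count per base was highest at -11 bp, with 60 joins, and it was 13 at 0 bp, 18 at 1 bp, 15 at 2 bp and 16 at 3 bp.

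Leftward I-SceI joins showed the opposite edge. They were frequent inside the site, with 23 at -8 bp and 8 at -7 bp, on either side of the top-strand cut. Right of the site the 35 leftward joins began only at 16 bp, and there were 0 of them at distances of 1 to 10 bp. They were spread over 32 positions out to 317 bp, with a median of 151 bp, and 23 lay beyond 100 bp, of which 13 were at 101 to 200 bp and 10 farther. Only 1 of 35 leftward joins lay within 20 bp, against 183 of 222 rightward joins (2.86% and 82.4%). That is a difference of -79.6 points (Fisher's exact test, adjusted p = 3.61e-20), and it was alike in both runs, with 0% and 4.55% of leftward joins and 84.1% and 81.3% of rightward joins.

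**Figure D2:**
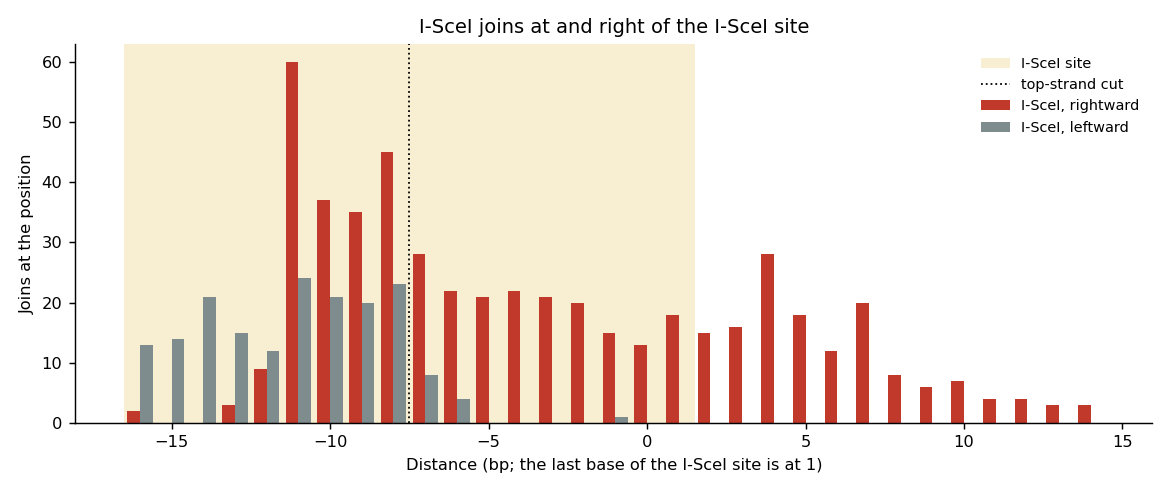
Number of I-SceI joins at each position from the left end of the I-SceI site (shaded) to 14 bp, with rightward joins in red, leftward joins in grey and the top-strand cut as a dotted line. Rightward joins peak at 60 inside the site and run on to its right, with 18 at 1 bp and 28 at 4 bp, whereas no leftward join lies right of the site in this range.

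Tus joins were spread over the window in both directions. The 43 rightward Tus joins of all 8 groups had a median distance of 87 bp (interquartile range 34 to 149 bp) and lay at 35 positions. The 93 leftward ones had a median of 109 bp (interquartile range 56 to 215 bp) and lay at 77 positions. Within 20 bp lay 18.6% of the rightward Tus joins (8 of 43) and 8.6% of the leftward ones (8 of 93), and these shares did not pass a test of their difference (Fisher's exact test, adjusted p = 0.653).

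Over both directions, the share within 20 bp was 73.3% and 70.5% in the I-SceI libraries. In the matched Tus libraries it was 60% (3 of 5 joins), 0% (of 3) and 0% (of 1). The pooled difference was 38.3 points (Fisher's exact test, adjusted p = 0.0331; exact permutation p = 0.2). By the same exact test it missed the threshold without Tus run C (21.6 points, adjusted p = 0.54) or run D (34.1 points, adjusted p = 0.0764). With each position and direction counted once per library it was 3.12 points, at 36.4% of 107 I-SceI joins and 33.3% of 9 Tus joins (Fisher's exact test, adjusted p = 1.0). Counting each molecule once, by position, direction, far end and bait end, gave 38.2 points (71.5% with I-SceI and 33.3% with Tus, Fisher's exact test, adjusted p = 0.0337). The joins at repeated positions thus mostly differed in far end or bait end. In the 12 BRCA1del Tus libraries it lay between 0% and 60%, below both I-SceI libraries, and the pooled share was 17.9% (10 of 56 joins, exact permutation p = 0.011, adjusted p = 0.0247). The median distance per library was 8 and 7.5 bp with I-SceI and 17 to 174 bp over those 12 Tus libraries (exact permutation p = 0.022). Among rightward joins alone, 82.4% of I-SceI joins and 18.6% of Tus joins of all 8 groups lay within 20 bp (Fisher's exact test, adjusted p = 4.38e-15), but the 16 Tus libraries that held any ranged from 0% to 100% and the exact permutation p was 0.085.

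**Figure D3:**
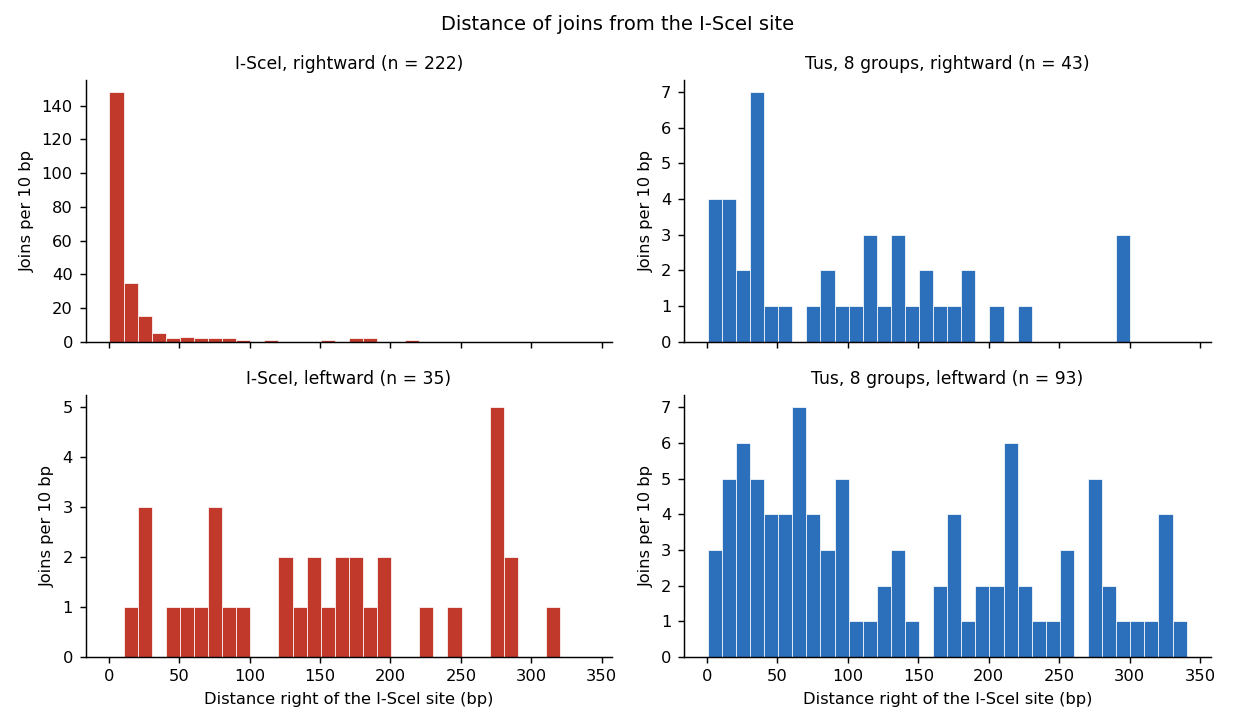
Number of joins in 10-bp steps of distance right of the I-SceI site, for rightward (top) and leftward (bottom) joins, with I-SceI at the left and the 8 Tus groups together at the right, each on its own vertical scale. The first step holds 148 of 222 rightward I-SceI joins and 4 of 43 rightward Tus joins, while leftward joins of both are spread over the window.

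The 5 positions with most joins in each set show how concentrated each was. Rightward I-SceI joins were most frequent at 4 bp (28 joins), 7 bp (20 joins), 1 and 5 bp (18 joins each) and 3 bp (16 joins), each of them in both runs. At 4 bp, 12 joins came from run A and 16 from run C. The 28 joins there used 15 bait ends and were 28 different molecules by far end and bait end within a library. With Tus no position held more than 3 joins in a direction. The most used rightward Tus position, at 35 bp, held 3 joins in 3 libraries, or 6.98% of rightward Tus joins. As a share this was near the lowest of the 5 I-SceI positions, which held 7.21% to 12.6% of rightward I-SceI joins each. The most used leftward Tus positions held 3 joins each, at 61, 179, 215 and 273 bp. Leftward I-SceI joins reached 2 joins at each of 71, 163 and 273 bp.

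Structure was called for 390 of the 393 joins. Microhomology means bases that match both the bait and the prey at the join, and an insertion is bases that belong to neither. Rightward I-SceI joins were blunt in 87 of 222 (39.2%) and had 1 shared base in 56 (25.2%). Microhomology of at least 2 bp was found in 46 (20.7%, interval 15.9 to 26.5%), and insertions in 33 (14.9%). Run A and run C gave 40.9% and 38.1% blunt joins and 21.6% and 20.1% microhomology. The runs were alike in both shares.

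Leftward I-SceI joins were built differently from rightward ones in the same libraries. Microhomology of at least 2 bp was found in 19 of 35 leftward joins against 46 of 222 rightward joins, or 54.3% and 20.7%, a difference of 33.6 points (Fisher's exact test, adjusted p = 0.000212 over 5 measures). Blunt joins made up 11.4% of leftward joins (4 of 35) and 39.2% of rightward joins (Fisher's exact test, adjusted p = 0.00175). The leftward share differed between runs, at 23.1% in run A (3 of 13) and 4.55% in run C (1 of 22), against 40.9% and 38.1% of rightward joins. Microhomology was more frequent in leftward joins in both runs, at 38.5% in run A and 63.6% in run C, against 21.6% and 20.1% of rightward joins. Insertions, in 7 of 35 leftward and 33 of 222 rightward joins, did not pass the test (Fisher's exact test, adjusted p = 0.453). With 2 libraries no test over libraries could pass a threshold of 0.05.

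Tus joins carried microhomology in both directions. It was found in 29 of 42 rightward joins (69.0%, interval 54.0 to 80.9%) and in 57 of 91 leftward joins (62.6%, interval 52.4 to 71.9%), a leftward minus rightward difference of -6.41 points that did not pass the test (Fisher's exact test, adjusted p = 0.7). Among Tus joins of all 8 groups, overlaps of 4 bp or more made up 28.6% of rightward and 19.8% of leftward joins. With I-SceI they made up 5.41% of rightward and 14.3% of leftward joins. The matched cells, BRCA1del with siFANCM, did not show this. Over both directions such overlaps were in 0 of 9 Tus joins there, and in 17 of 257 I-SceI joins (6.61%). Blunt joins made up 9.52% of rightward and 4.4% of leftward Tus joins.

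**Figure D4:**
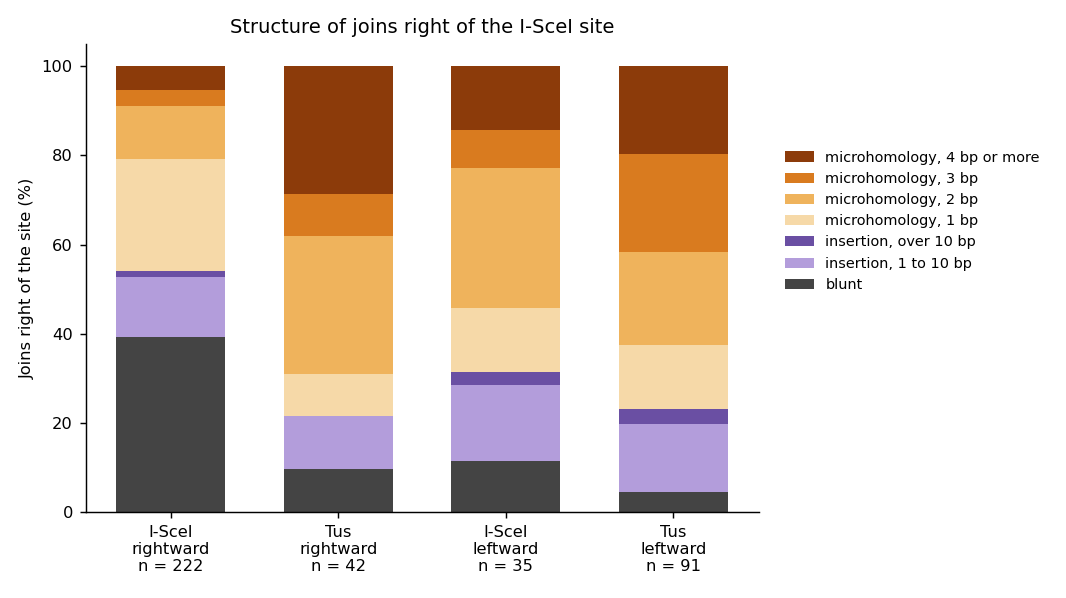
Share of joins right of the I-SceI site in each structure class, in percent, for rightward joins of I-SceI and of the 8 Tus groups and then for leftward joins of both. Blunt joins (dark grey) make up 39.2% of rightward I-SceI joins and 4.4% to 11.4% of the other 3 sets.

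Within a direction, the structures of rightward I-SceI and Tus joins differed on pooled junctions, and those of leftward joins were not shown to differ. Among rightward joins, microhomology was 20.7% with I-SceI and 69.0% with Tus, a difference of -48.3 points (Fisher's exact test, adjusted p = 5.13e-09). Blunt joins were 39.2% with I-SceI and 9.52% with Tus (Fisher's exact test, adjusted p = 0.000235). Over libraries, where 16 Tus libraries held any rightward join and many held 1, the exact permutation p was 0.307 for microhomology and 0.118 for blunt joins. Among leftward joins, microhomology was 54.3% with I-SceI (interval 38.2 to 69.5%) and 62.6% with Tus (Fisher's exact test, adjusted p = 0.553). The Tus libraries here include other siRNAs and BRCA1flox cells. In BRCA1del with siFANCM alone, over both directions, microhomology was 25.3% with I-SceI (65 of 257) and 66.7% with Tus (6 of 9), a difference of -41.4 points (Fisher's exact test, adjusted p = 0.0226; exact permutation p = 0.4). It missed the threshold without Tus run A (-24.7 points, adjusted p = 0.387) or run C (adjusted p = 0.0767), and over both directions beyond 20 bp it was -8.9 points (30 of 73 I-SceI joins and 3 of 6 Tus joins, Fisher's exact test, adjusted p = 0.893). Blunt joins in those cells were 35.4% with I-SceI (91 of 257) and 11.1% with Tus (1 of 9; Fisher's exact test, adjusted p = 0.218).

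Rightward joins were also compared away from the site. Beyond 20 bp, microhomology was found in 12 of 39 I-SceI joins (30.8%, interval 18.6 to 46.4%) and 26 of 34 Tus joins of all 8 groups (76.5%). The difference was -45.7 points (Fisher's exact test, adjusted p = 0.00086 over 6 comparisons chosen after the data were seen). Blunt joins there were 38.5% with I-SceI and 5.88% with Tus (Fisher's exact test, adjusted p = 0.00503). These Tus joins include other siRNAs and BRCA1flox cells. The matched Tus cells gave only 1 of them in run A, with microhomology, and 1 in run D, without. No test over libraries was made for these joins. Microhomology beyond 20 bp was present in 4 of 14 I-SceI joins in run A and 8 of 25 in run C. Within I-SceI, rightward joins beyond and within 20 bp had 30.8% and 18.6% microhomology (Fisher's exact test, adjusted p = 0.251) and 38.5% and 39.3% blunt joins.

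At the named positions, the overlaps of at least 5 bp shared letters with 1 part of the bait end. At 4 bp, 10 of the 28 I-SceI joins had microhomology of at least 2 bp, with AG and AGGAG in 3 joins each and AGG and AGGAGTA in 2 each. The 2 rightward Tus joins at the same position used AGGAG and AGGAGTA. At 35 bp, 2 of the 3 rightward Tus joins used GGAGTA, and the remaining join had no structure call. Leftward joins at 273 bp used GCAGGA, in 1 of the 2 I-SceI joins and in 2 of the 3 Tus joins. For the remaining Tus join there, no structure was called. The overlaps of at least 5 bp lie in the capitals of the bait end printed above. The AG and AGG overlaps at 4 bp match letters found there, but not all of them lay there. The bait end had lost 15 bases in both AGG joins at 4 bp, so their overlap only reached the first capital. It had lost 44 bases in 1 of the AG joins. Some other overlaps at named positions had letters not found in the capitals. They included AA in 3 rightward I-SceI joins at 3 bp, and TTGC and TGCT in 1 leftward I-SceI join each. Of joins with at least 4 bp of microhomology, 9 of 17 with I-SceI and 13 of 30 with Tus used letters found in those 9 bases, the Tus ones in 9 libraries and at 8 positions. The stretch was drawn from these joins, so the counts describe it and test nothing. Most joins with microhomology had short and varied overlaps. Among the 65 I-SceI joins with at least 2 bp the most frequent overlap was AG, in 7, and among the 86 Tus joins it was GC, in 8 joins from 5 libraries.

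Loss on the bait side was compared between the sets as well. The bait end lay within 10 bp of the Cas9 cut in 56.4% and 60.3% of joins in the I-SceI libraries. In the matched Tus cells it did so in 6 of 9 joins, and the pooled difference was -7.91 points (Fisher's exact test, adjusted p = 0.741). The median loss was 7 bp for rightward I-SceI joins, 14 bp for leftward I-SceI joins, 7 bp for rightward Tus joins and 8 bp for leftward Tus joins. The bait end was near the cut in 42.9% of I-SceI joins that ran leftward and 61.3% of those that ran rightward (Fisher's exact test, adjusted p = 0.0549).

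Insertions were mostly short. Among rightward I-SceI joins, 30 of 33 insertions had 1 to 10 bp and the median was 2 bp. Leftward Tus joins had insertions in 17 of 91, with a median of 5 bp. Over all groups 7 joins had insertions of 12 bp or more, with the longest at 75 bp in a rightward I-SceI join at 4 bp. All 7 came from run C. In I-SceI run A the longest insertion was 3 bp in rightward and 6 bp in leftward joins. Of the 7 long insertions, 1 of 44 bp shared at least 12 bases in a row with the bait, and none shared as many with the cassette. In the matched cells, insertions were found in 15.6% of I-SceI joins (40 of 257) and 0 of 9 Tus joins (Fisher's exact test, adjusted p = 0.409).

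Leftward prey that ran back far enough crossed the I-SceI site, which shows whether the site was still whole on the joined molecule. With I-SceI, 10 of 35 leftward reads reached the left end of the site, and it was intact in 8 of them. With Tus, 48 of 93 reached it and it was intact in 46. In the 4 remaining reads, 2 with I-SceI and 2 with Tus, 17 of the 18 bases matched. Of the 10 I-SceI reads, 9 came from run C and 1 from run A.

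Few rightward reads passed the XbaI site at the right end of the window, where XbaI was used for blocking. They numbered 11 of 222 with I-SceI (4.95%) and 1 of 43 with Tus (2.33%). Prey parts were short, with a median aligned length of 127.5 bp for rightward I-SceI joins, 104 bp for rightward Tus joins, 129 bp for leftward I-SceI joins and 99 bp for leftward Tus joins.

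The Tus joins right of the site were next set against Tus joins in the Ter array and I-SceI site of the same group, a comparison added after the data were seen. The calling of structure was tested on simulated joins right of the site, not on array joins. Microhomology of at least 2 bp was found in 86 of 133 joins right of the site (64.7%) and in 43.5% of 4942 array joins. It was higher right of the site in 7 of 8 groups, and the differences averaged 17.9 points (p = 0.0234 in an exact sign-flip test over 8 groups, adjusted p = 0.0468 over 4 structures). The exception was BRCA1flox siBRCA1, with 4 of 10 joins and 48.2% of array joins. Blunt joins made up 6.02% right of the site and 16.1% in the array and were lower right of the site in all 8 groups, with differences of -16.2 to -1.93 points (exact sign-flip p = 0.00781, the lowest 8 groups allow, adjusted p = 0.0312). Microhomology of at least 4 bp, found in 22.6% of joins right of the site, was higher there in 6 of 8 groups, by a mean of 9.48 points, and did not pass (exact sign-flip p = 0.0938, adjusted p = 0.125). Insertions did not pass the test (16.5% and 17.5%, exact sign-flip p = 0.742). With I-SceI, microhomology was 25.3% right of the site and 18.4% in the array window, and blunt joins were 35.4% and 37.8%.

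**Figure D5:**
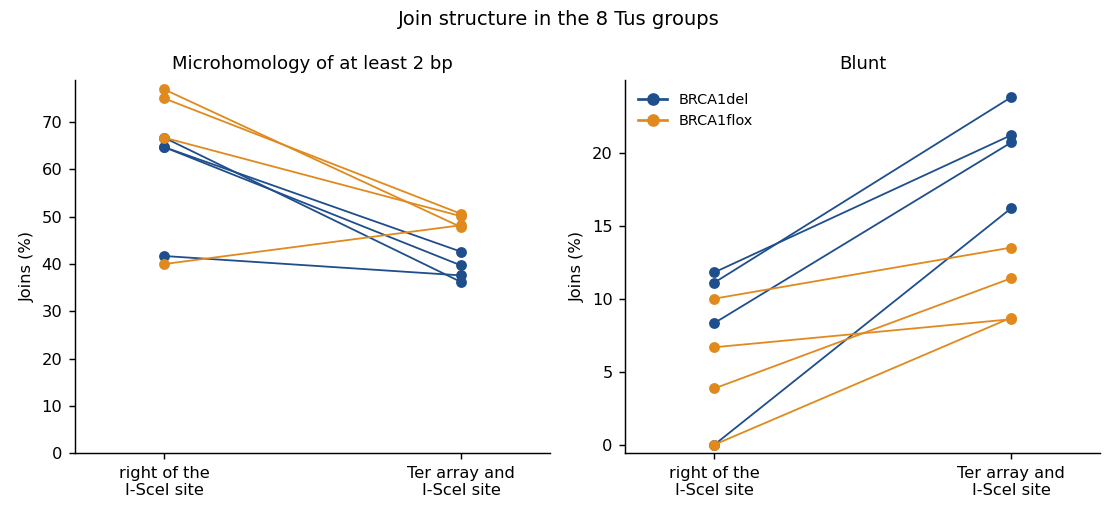
Share of joins with microhomology of at least 2 bp (left) and of blunt joins (right), in percent, in the 8 Tus groups, with a line from joins right of the I-SceI site to joins in the Ter array and I-SceI site of the same group. Microhomology is higher right of the site in 7 of 8 groups and blunt joins are lower in all 8.

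The last comparisons asked whether genotype or siRNA changed the share of Tus joins that landed right of the site, as the study set BRCA1del against BRCA1flox cells. The mean share over the 4 siRNAs was 1.49% of body joins in BRCA1del and 2.56% in BRCA1flox. The difference of -1.07 points did not pass when libraries were permuted within siRNAs (exact permutation p = 0.05005, adjusted p = 0.15 over 3 measures). The common odds ratio on pooled junctions was 0.582 (interval 0.412 to 0.822). When libraries were matched by run, BRCA1del had the lower share in 6 of 8 pairs and the mean difference was -1.03 points (exact sign-flip p = 0.156).

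The pairs did not all point the same way. With siBLM, BRCA1del libraries gave 2.27%, 1.63% and 1.01% and BRCA1flox libraries 6.19% and 2.55%, with no overlap, and the pooled shares were 1.87% (17 of 908) and 5.03% (31 of 616; Fisher's exact test, adjusted p = 0.0033 over 4 pairs; exact permutation p = 0.1, the smallest possible). With siFANCM, BRCA1del libraries gave 1.23%, 0.94% and 1.03% and BRCA1flox libraries 4.08%, 1.99% and 2.07%, again with no overlap, and pooled shares of 1.09% and 3.01% (Fisher's exact test, adjusted p = 0.0119; exact permutation p = 0.1, the smallest possible). Without run C the siBLM difference was -0.514 points (Fisher's exact test, adjusted p = 0.775). The siFANCM difference missed the threshold without run A (-2.05 points), run B (-0.921 points) or run C (-2.37 points), with an adjusted p of 0.0564, 0.287 and 0.0626 (Fisher's exact test). With siBRCA1 the pooled shares were 1.53% and 1.9% (Fisher's exact test, adjusted p = 0.673), and with siLuciferase they were 1.93% and 1.28% (Fisher's exact test, adjusted p = 0.368).

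Against siLuciferase in the same genotype, siBLM in BRCA1flox had the largest difference, 5.03% against 1.28% of body joins (31 of 616 and 12 of 938; Fisher's exact test, adjusted p = 0.000123 over 6 pairs). The libraries were 6.19% and 2.55% with siBLM and 1.11% and 1.85% with siLuciferase, and 2 against 2 libraries cannot give an exact permutation p below 0.333. Without run C this difference was 0.699 points (Fisher's exact test, adjusted p = 1.0). For siFANCM in BRCA1flox the pooled shares were 3.01% against 1.28% (Fisher's exact test, adjusted p = 0.0393; exact permutation p = 0.4), and the difference was 0.734 points without run B (adjusted p = 0.467) and 1.71 points without run C (adjusted p = 0.895). In BRCA1del none of the 3 siRNAs passed, with siBLM at 1.87%, siBRCA1 at 1.53%, siFANCM at 1.09% and siLuciferase at 1.93% (adjusted p = 0.354 to 1.0, Fisher's exact test).

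The direction of Tus joins also varied among siRNAs. With siLuciferase, 1 of 18 joins in BRCA1del and 1 of 12 in BRCA1flox were rightward (5.56% and 8.33%). With siBLM the counts were 10 of 17 in BRCA1del and 9 of 31 in BRCA1flox, with siFANCM 3 of 9 and 13 of 26, and with siBRCA1 4 of 12 and 2 of 11. Of these 6 differences from siLuciferase, a family added after the data were seen, 1 passed, that of siBLM in BRCA1del (Fisher's exact test, adjusted p = 0.00567; exact permutation p = 0.1, the smallest possible). Its libraries gave 60%, 50% and 100% with siBLM, from 10, 6 and 1 joins. With siLuciferase they gave 0%, 9.09% and 0%, from 6, 11 and 1 joins. Between genotypes, the rightward share averaged 37.7% in BRCA1del and 32.8% in BRCA1flox (exact permutation p = 0.6694) and microhomology 57.8% and 70.9% (exact permutation p = 0.2806).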

How the data were processed

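For each group the authors deposited a table that lists junctions line by line, with position, strand, alignment start and end and the read. These deposited values are positions and read letters, with samples of a group pooled. The submitters' processing notes name Bowtie2 and mm9. How duplicates were removed is not given in the sources used here, and no read sequence was repeated among the joins described.

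The cassette and bait sequences were rebuilt from the reads by vote. Structure was called by extending exact seeds of 10 bp in the bait and 12 bp in the prey. The caller was tested on simulated joins placed right of the site, not in the array. The Cas9 cut was placed 145 bases after the primer start, where 65.7% of still-matching reads stopped. Deposited positions matched the rebuilt sequence exactly for 252 of 264 rightward and 122 of 126 leftward joins right of the site. The last base of the I-SceI site falls inside the window, and a window shifted by 1 base was tried too.

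Shares were compared by Fisher's exact test over pooled junctions and by two-sided exact permutation tests over libraries, with Benjamini-Hochberg adjustment, in Python 3.11.15 with SciPy 1.17.1. The threshold of 0.05 was applied to adjusted Fisher p-values, or to the unadjusted permutation p for the 3 genotype measures. Positions named were, in each effector and direction, the 5 with most joins, ties going to the lower position. The window, measures and tests were chosen with earlier results of these data known. Alternatives were other denominators, counting once each position and direction or each distinct molecule, other windows and limits, shared runs and leaving out each library or run.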

Additional observations from a re-analysis of the deposited data

Results flagged for a closer look

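The genotype difference in the share of Tus joins right of the site varied among siRNAs when junctions were pooled. BRCA1del and BRCA1flox gave 1.87% and 5.03% with siBLM, 1.09% and 3.01% with siFANCM, 1.53% and 1.9% with siBRCA1, and 1.93% and 1.28% with siLuciferase. The interaction of genotype and siRNA had p = 0.00927 in a logistic model of pooled junctions, which is not an exact test and leaves out the spread between libraries. It did not pass over the 21 libraries, with an exact permutation p of 0.239 for the variance of the 4 differences over all 20000 assignments of genotype within siRNAs. The cause was not tested.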

How the results depend on the processing

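The higher share right of the site with I-SceI than with Tus, in all, rightward and leftward, kept its direction and call in every alternative run, and a window shifted by 1 base changed no call. Differences are in percentage points. For I-SceI minus Tus in BRCA1del with siFANCM, counting each position and direction once gave 34.9 for the rightward share, 3.12 for the share within 20 bp and -37.7 for microhomology, none past the threshold, whereas counting each distinct molecule once changed no call. Starting the window 20 bp further right gave 20.1 for the rightward share and -8.9 for microhomology, and shared runs gave 34.1 within 20 bp. A limit of 50 bp gave 26.2 and microhomology of at least 1 bp gave -39.9, neither past the threshold. Microhomology of at least 4 bp gave 6.61 and a bait limit of 2 bp gave 13.4, both of the opposite sign and not past it. With Tus of all 4 siRNAs the blunt difference of 28.1 passed. Leaving out libraries gave 36.4 to 61.4 for the rightward share, 21.6 to 71.6 within 20 bp and -49.7 to -24.7 for microhomology. For BRCA1del minus BRCA1flox, joins from the array to the XbaI site as denominator gave -1.62. That passed by the unadjusted permutation p used for genotype calls. Microhomology of at least 1 bp gave 11.4 for this contrast, the opposite sign. The siFANCM genotype difference in runs C and D was -1.05. Leaving out runs gave genotype differences of -4.21 to -0.514 for siBLM, -0.773 to 0.681 for siBRCA1, -2.37 to -0.921 for siFANCM and -0.673 to 1.15 for siLuciferase. For siFANCM minus siLuciferase in BRCA1flox the array denominator gave 2.06, counting once 2.24 and runs C and D 0.734, none past it, and siBLM minus siLuciferase in BRCA1del, counting once, was 0.155. Leaving out runs gave differences from siLuciferase in BRCA1del of -0.809 to 0.859 for siBLM, -1.18 to 0.745 for siBRCA1 and -1.22 to 0.00967 for siFANCM, and in BRCA1flox of 0.699 to 5.08, -0.61 to 1.04 and 0.734 to 2.09. The cause of these changes was not tested. No paired analysis was possible because the tables carry no replicate numbers, other than by sequencing run. Pairs matched by run were tested for genotype only (mean difference -1.03, exact sign-flip p = 0.156). Other contrasts also shared runs, but they were not tested as pairs. I-SceI and the matched Tus cells shared runs A and C. In BRCA1del, siBLM, siBRCA1 and siLuciferase shared runs B, C and D. The matched Tus libraries held 1 to 5 joins each, which limits every share among them.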
